A study of Mus musculus with 15 samples.

Results

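The amino acid response genes are the targets through which cells adjust when amino acids run short or the endoplasmic reticulum is stressed. In this response a phosphorylated eIF2 slows translation in general but favours that of the transcription factor Atf4. Atf4 then enters the nucleus and, with partners such as Cebpg, switches on genes for amino acid synthesis, uptake and tRNA charging. In cartilage the same genes serve cells that secrete large amounts of matrix protein, and Atf4 and its partner Ddit3 (Chop) are known from studies of growth plate chondrocytes.

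Of 40 genes listed by their known place in this response, 39 had at least 1 probe set with a single gene symbol, 87 probe sets in all, out of 18193 genes and 45101 probe sets on the array. Pycr1 was not analysed here. The list was drawn up with earlier results of these data known. Testing required a mean signal of 50 or more in 1 or more groups, and 76 probe sets of 38 members met this, among 11751 genes in all. The cystine transporter gene Slc7a11 did not reach this level, with both of its probe sets at signals of 31.3 or less on every array. Each gene was represented by its probe set with the highest mean log2 signal.

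The cells were primary chondrocytes of CD1 mouse embryos at embryonic day 15.5, taken from the long bones and grown in monolayer, and every culture was kept for 24 hours with 1 agent. The groups were LY294002, an inhibitor of the lipid kinase PI3K, at 10 µM; UO126, an inhibitor of MEK, at 10 µM; SB202190, set beside the MEK/ERK inhibitors in the series text and usually described as a p38 inhibitor, at 10 µM; trichostatin A (TSA), an inhibitor of histone deacetylases, whose dose is not given here because its unit could not be read; and the vehicle DMSO. Each group had 3 arrays, described as independent experiments, and p-values measure the spread between these arrays. Cultures were mixtures of cells, so fewer cells of a type and less RNA per cell cannot be told apart.

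Signals are MAS5 values on a linear scale, brought to the same trimmed mean in all arrays, and differences are given as log2 change ± SE with p-values from limma adjusted over all 21765 probe sets tested. The median signal was 29.7 to 39.9 on the 15 arrays. Correlations between arrays of 1 group were 0.967 to 0.981, against 0.836 to 0.866 between TSA arrays and those of other groups. All 8 chondrocyte markers had a mean signal over 50 in every group. Their summed signal was 13607 to 15550 in TSA cultures, against 19641 to 29804 in DMSO cultures. The markers differed, with Col2a1 averaging 5634 with TSA and 5700 with DMSO, and Matn1 198 and 1869. The sum of 4 skeletal muscle markers was 96.9 to 134 in TSA cultures, against 460 to 1308 in DMSO cultures. The sum of 3 hypertrophic chondrocyte markers was 826 to 2098 in TSA cultures, against 2990 to 4696 in DMSO cultures. Of these 3, Mmp13 averaged 658 with TSA and 3090 with DMSO and Ihh 43.0 and 102, while Col10a1 averaged 602 and 548. Macrophage marker sums overlapped, at 467 to 546 in TSA cultures and 532 to 625 in DMSO cultures, but single markers moved apart. Cd68 was at 292 in TSA cultures and 68.0 in DMSO cultures, and Lyz2 at 56.2 in TSA cultures and 257 in DMSO cultures. The sum of 4 fibroblast markers was 6897 to 8364 in TSA cultures, against 8231 to 11886.5 in DMSO cultures. Of these, Thy1 averaged 818 with TSA and 344 with DMSO, while Col1a1, Col3a1 and Pdgfra were lower with TSA. The osteoblast markers Ibsp and Sp7 summed to 454 to 1780 in TSA cultures, against 1785 to 2110 in DMSO cultures. Pecam1, Cdh5 and the erythroid genes were near background in every group, but the endothelial Kdr averaged 53.5 (LY294002) to 71.6 (DMSO). The part of these markers in the results with TSA was not tested.

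The members' promoters were searched for TGATGNAA, the core of the C/EBP-Atf response element through which Atf4 binds. Both strands were searched, and no other motif was. RefSeq promoter windows of GRCm38.p6, reaching 250 bases before to 50 bases after the start site, were at hand for 32 members, and 13 of them (40.6%) held the motif, against 4.51% of 27025 genes with a window. Members were listed by their known place in this response, so this share is not independent of the choice of list. In 9 members the whole motif lay before the start site. The sequences that follow are those of 5 members described below, in the direction of transcription, with the motif in capitals. Aars, Gars, Slc7a11 and Vldlr, whose motif also lay before the start site, are not printed.
Asns (chr6:7693214-7693243, minus strand): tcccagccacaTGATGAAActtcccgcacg
Chac1 (chr2:119351038-119351067, plus strand): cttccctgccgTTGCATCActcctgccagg
Nupr1 (chr7:126625562-126625591, minus strand): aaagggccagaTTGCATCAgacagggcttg
Atf3 (chr1:191183425-191183454, minus strand): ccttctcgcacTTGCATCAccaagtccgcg
Pck2 (chr14:55540152-55540181, plus strand): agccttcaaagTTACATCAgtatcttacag
The motif ended 16 bases before the start site in Asns and 186 bases before it in Chac1, and in these 5 it was read on the strand of the gene only in Asns. These 5 genes differed in what they did: as given below, TSA cultures had lower Chac1, Nupr1 and Pck2, higher Atf3 and no called change of Asns.

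With TSA most of the response genes were down-regulated. Of the 38 tested, 26 were lower and 4 higher than in DMSO cultures, 78.9% in all, where 58.9% of all genes tested passed the threshold, 30.6% higher and 28.4% lower. Members were chosen with earlier results known, so the shares in this and the other comparisons are not independent of the choice of list. The members' median log2 change was -0.62, and that of all genes was 0.00. By role, 6 of 10 regulators and stress genes, 8 of 10 synthesis enzymes, 5 of 7 transporters and 7 of 9 tRNA synthetases were lower. Of the 30 calls, 28 were kept in each of 17 alternatives. The plot of log2 changes shows the 4 inhibitors side by side.

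**Figure D1:**
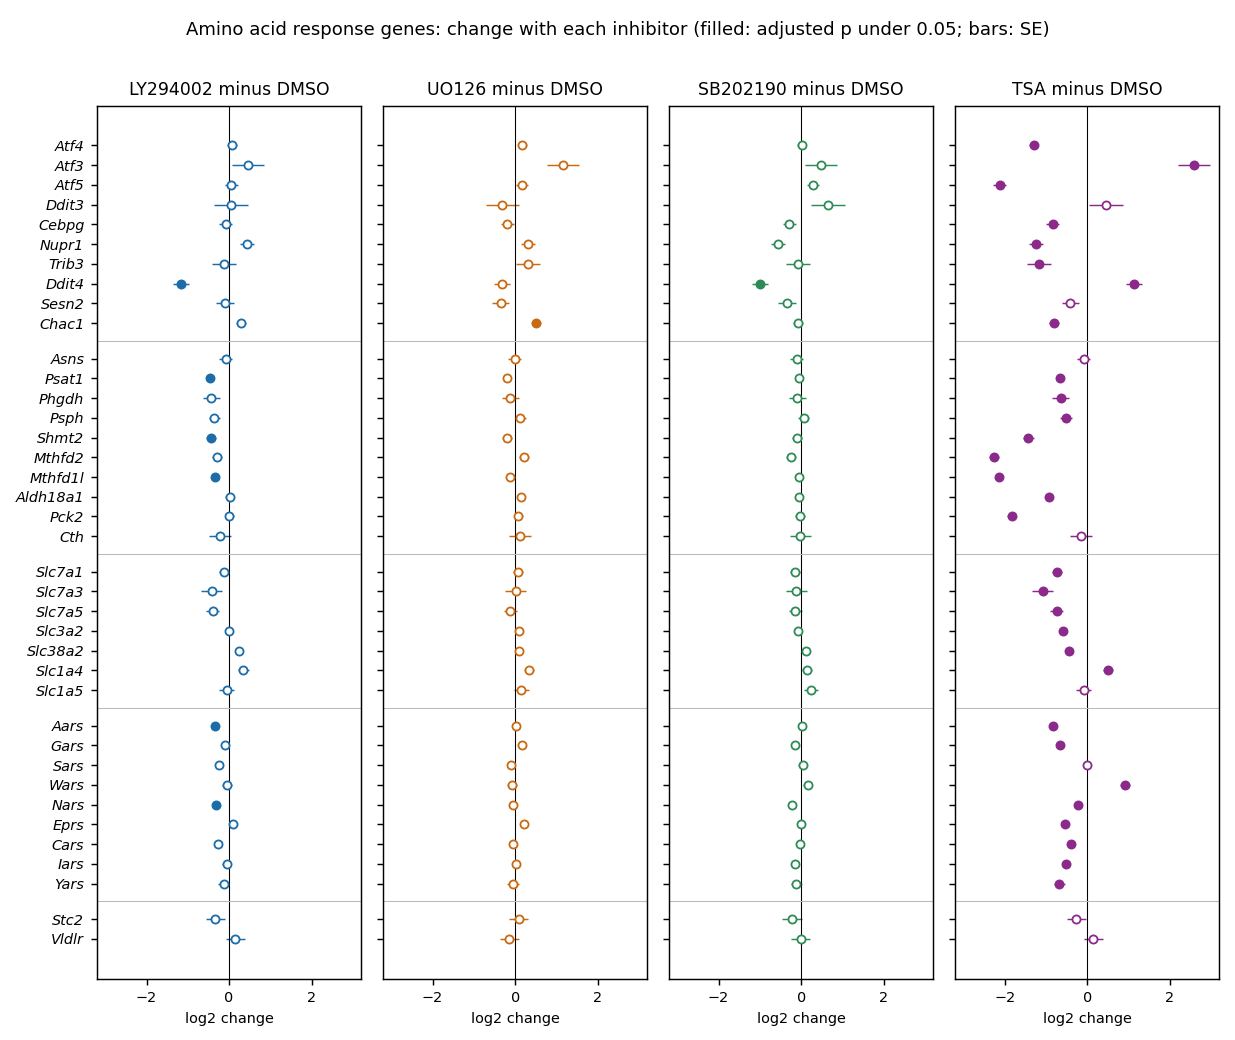
Log2 change (x axis) of 38 amino acid response genes (rows, grouped from top to bottom as regulators and stress genes, synthesis enzymes, transporters, tRNA synthetases, and secreted or membrane proteins) in each inhibitor group minus DMSO (panels for LY294002, UO126, SB202190 and TSA); points are estimates from 3 arrays a group, bars are SE, and filled points have an adjusted p under 0.05. In the TSA panel 26 points are filled on the left and 4 on the right, and the other 3 panels hold 6, 1 and 1 filled points.

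Atf4 itself fell. Its signal was 834, 836 and 832 on the TSA arrays, against 1738, 2125 and 2333 on the DMSO arrays, a log2 change of -1.30 ± 0.11 (adjusted p = 1.54e-07). The groups did not overlap, and the 3 TSA arrays were nearly equal. A second probe set of Atf4 changed by -1.19. The related factor Atf5 had signals of 119, 144 and 93.9 in TSA cultures, against 449, 531 and 559.8 in DMSO cultures, a log2 change of -2.13 ± 0.15 (adjusted p = 1.76e-08), also without overlap. Cebpg, which encodes a C/EBP protein that pairs with Atf4, averaged 201 ± 27.1 in TSA cultures and 359 ± 54.7 in DMSO cultures (SD, n = 3 each; adjusted p = 0.000325).

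Not all regulators were lower with TSA. Atf3, a stress-induced factor that is itself a target of Atf4, had signals of 279.8, 302 and 174 in TSA cultures, against 34.4, 26.0 and 74.9 in DMSO cultures. All TSA arrays lay above all DMSO arrays, with a log2 change of 2.59 ± 0.39 (adjusted p = 3.77e-05) that rests on DMSO signals near background and was 2.10 with signals under 50 set to 50. Ddit4 (Redd1), an inhibitor of mTORC1 signalling, had signals of 1154, 1115 and 864 in TSA cultures, against 469, 480.1 and 472 in DMSO cultures, a log2 change of 1.13 ± 0.19 (adjusted p = 0.000141). The groups were far apart, and the DMSO arrays agreed closely. Ddit3, which encodes the factor Chop, had signals of 126, 114 and 114 in TSA cultures, against 82.0, 72.0 and 107 in DMSO cultures, and its log2 change of 0.45 ± 0.41 did not pass the threshold (adjusted p = 0.362), although the groups did not overlap.

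Trib3, Chac1 and Nupr1 were lower in TSA cultures. Trib3, a pseudokinase that restrains Atf4, had signals of 64.2, 61.1 and 84.0 with TSA, against 129, 130.2 and 225 with DMSO, a log2 change of -1.17 ± 0.29 (adjusted p = 0.00311). Chac1, a glutathione-degrading enzyme, had 226, 212 and 199.6 with TSA, against 334, 352 and 440.0 with DMSO, a log2 change of -0.81 ± 0.12 (adjusted p = 3.19e-05). In both genes every TSA array was below every DMSO array. Nupr1, a small stress-induced nuclear protein, had 134, 157 and 184 with TSA, against 382, 306 and 449.6 with DMSO, a log2 change of -1.25 ± 0.17 (adjusted p = 1.66e-05). Sesn2, another brake on mTORC1, averaged 59.4 ± 5.76 with TSA and 79.5 ± 15.0 with DMSO (SD, n = 3 each) and was not called by this probe set (adjusted p = 0.112), though 1 of its 2 probe sets was.

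**Figure D2:**
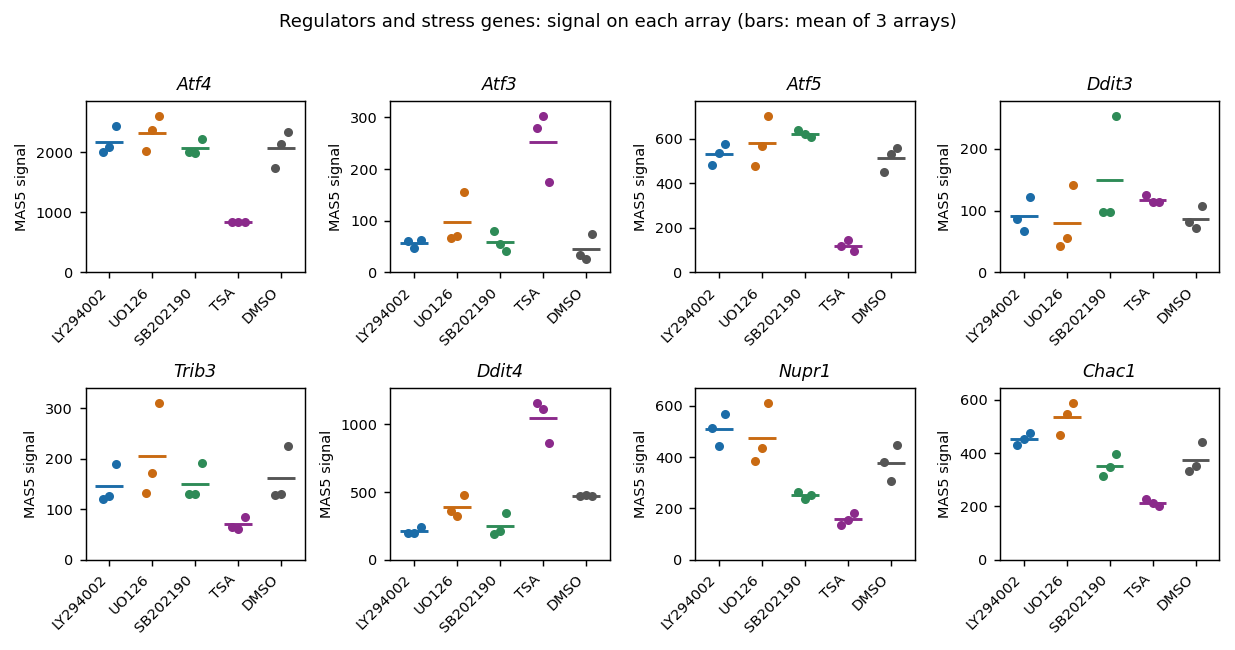
MAS5 signal (y axis, linear from 0) of 8 regulators and stress genes on each of 3 arrays (points) in LY294002, UO126, SB202190, TSA and DMSO cultures (left to right), with the group mean as a bar. Atf4, Atf5, Trib3, Nupr1 and Chac1 are lower on every TSA array than on every DMSO array, Atf3 and Ddit4 are higher, and Ddit4 is lower on every LY294002 and SB202190 array than on the DMSO arrays.

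Among the synthesis enzymes the largest falls with TSA were in mitochondrial one-carbon metabolism. Mthfd2, which oxidizes methylene-tetrahydrofolate in mitochondria, had signals of 177, 148 and 172 with TSA, against 773, 725 and 882 with DMSO, a log2 change of -2.26 ± 0.12 or 4.79-fold (adjusted p = 9.11e-10). Mthfd1l, the mitochondrial formate-producing enzyme, had 96.3, 108 and 106 with TSA, against 505, 409 and 453 with DMSO, a log2 change of -2.14 ± 0.10 (adjusted p = 1.6e-10). The groups lay far apart in both genes, with no TSA array above 177 and no DMSO array below 409. Shmt2, which makes glycine and one-carbon units from serine in mitochondria, had 375, 359.7 and 346 with TSA, against 908, 939 and 1068 with DMSO, a log2 change of -1.43 ± 0.13 (adjusted p = 1.6e-07). Pck2, the mitochondrial PEP carboxykinase, had 182, 177 and 217 with TSA, against 629, 673 and 753 with DMSO, a log2 change of -1.84 ± 0.11 (adjusted p = 3.22e-09). Neither gene had overlapping groups, and both probe sets of Pck2 and of Mthfd2 were called. The other probe set of Mthfd2 changed less, by -1.39, and the mean of both by -1.82. Of 4 probe sets of Shmt2, 3 were called, with changes of all 4 between -1.45 and -0.62 and a mean of -1.11.

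The cytosolic serine pathway was lower as well. Psat1, its transaminase, had signals of 1251, 1237 and 1289 with TSA, against 2025, 1969.6 and 1989 with DMSO, a log2 change of -0.66 ± 0.07 (adjusted p = 2.21e-06). The arrays of each group were tight and apart. Psph, the last enzyme of the pathway, averaged 232 ± 16.7 with TSA and 333 ± 51.7 with DMSO (adjusted p = 0.00501), and Phgdh, its first enzyme, 1000.2 ± 13.8 and 1611 ± 479 (TSA and DMSO, SD, n = 3 each; adjusted p = 0.0156). The Phgdh call was lost without DMSO array 2 or 3, with adjusted p between 0.0559 and 0.0881, yet all 4 of its tested probe sets were called lower. Its probe sets can share target with near copies, since 2 further probe sets name it together with Gm8096 or Gm6756, so its values are uncertain. Aldh18a1, which starts proline synthesis, averaged 759 ± 50.4 with TSA and 1440.0 ± 140.3 with DMSO (adjusted p = 1.16e-06), and 3 of its 5 probe sets were called.

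Asparagine synthetase, the classical target of the amino acid response, did not pass the test. Asns had signals of 1264, 1576 and 1340.2 with TSA, against 1293, 1442 and 1706 with DMSO, a log2 change of -0.08 ± 0.15 (adjusted p = 0.672). The groups overlapped, and neither of its 2 probe sets was called. Cth, which makes cysteine from cystathionine, averaged 107 ± 29.1 with TSA and 118 ± 30.5 with DMSO and was not called either.

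**Figure D3:**
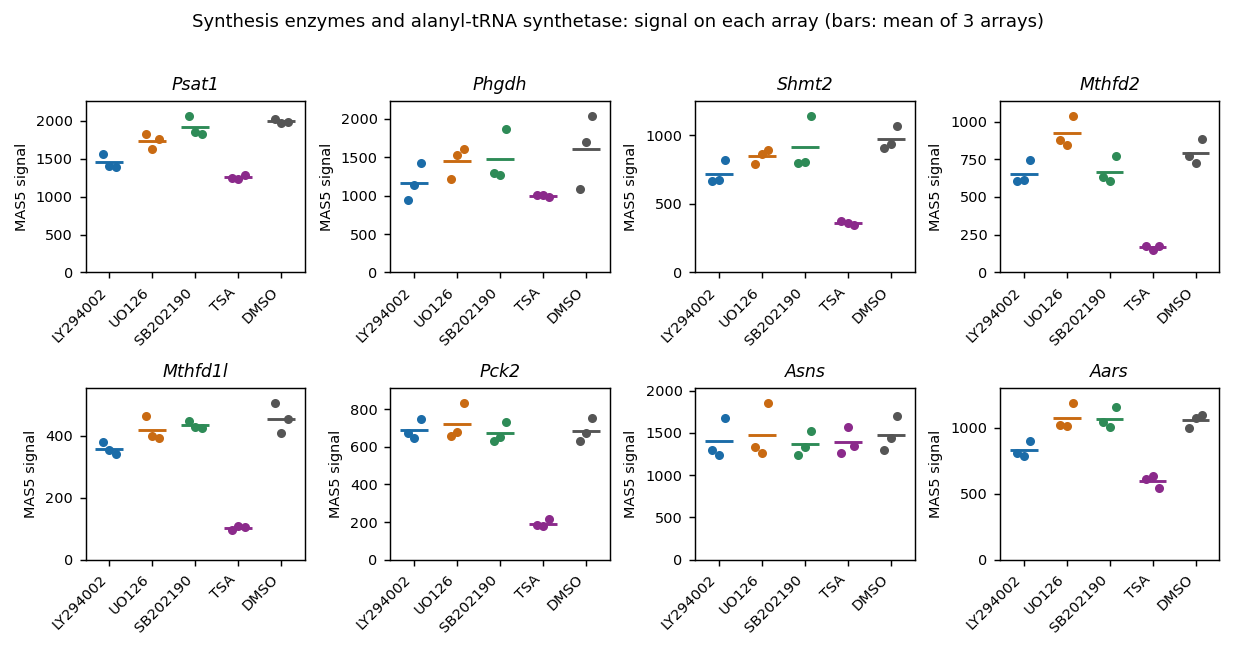
MAS5 signal (y axis, linear from 0) of 7 synthesis enzymes and alanyl-tRNA synthetase (Aars) on each of 3 arrays (points) in LY294002, UO126, SB202190, TSA and DMSO cultures (left to right), with the group mean as a bar. Mthfd2, Mthfd1l, Pck2 and Shmt2 stand lowest with TSA, Psat1 is lower on every LY294002 and TSA array than on every DMSO array, and the 5 groups of Asns overlap.

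Of the 7 transporters tested, 5 were lower with TSA, 1 was higher and 1 was not called. Slc7a3 and Slc7a1, carriers of cationic amino acids, changed by -1.08 ± 0.25 and -0.74 ± 0.12 on the log2 scale (adjusted p = 0.002 and 8.63e-05). Slc7a5 and Slc3a2, the light and heavy chain of the leucine exchanger, changed by -0.74 ± 0.16 and -0.59 ± 0.09 (adjusted p = 0.000908 and 3.93e-05). Slc38a2, a sodium-coupled carrier of neutral amino acids, averaged 1369 ± 67.9 with TSA and 1869 ± 47.2 with DMSO (SD, n = 3 each; adjusted p = 5.08e-05). Only this 1 of its 3 probe sets was called, and 1 moved the other way without a call. Slc1a4, an exchanger of small neutral amino acids, rose by 0.51 ± 0.12 on the log2 scale (adjusted p = 0.00266). The glutamine carrier Slc1a5 averaged 238 ± 33.0 with TSA and 252 ± 12.7 with DMSO and was not called.

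The tRNA synthetases load amino acids onto their tRNAs. Aars, for alanine, had signals of 610.3, 638 and 545 with TSA, against 997, 1077 and 1098 with DMSO, a log2 change of -0.82 ± 0.09 (adjusted p = 1.75e-06), with no overlap. The enzymes for tyrosine (Yars), glycine (Gars), glutamate and proline (Eprs), isoleucine (Iars) and cysteine (Cars) were lower by log2 changes between -0.68 and -0.40. Nars, for asparagine, had 1418, 1445 and 1402 with TSA, against 1624, 1642 and 1716 with DMSO, a log2 change of -0.22 ± 0.08 (adjusted p = 0.0201). The Nars groups did not overlap, but the call was lost without TSA array 3 (adjusted p = 0.0509) or DMSO array 3 (adjusted p = 0.062), after centring (0.19), with both groups alone (0.0565) and with the mean of its 2 probe sets (log2 change -0.13, adjusted p = 0.253), of which the other changed by -0.03. Wars, for tryptophan, which is also known as an interferon-induced gene, was higher, averaging 851 ± 34.5 with TSA and 456 ± 27.1 with DMSO (SD, n = 3 each; log2 change 0.90 ± 0.12, adjusted p = 1.28e-05). All 4 probe sets of Wars had positive changes, from 0.32 to 0.90, and 2 were called. Sars, for serine, averaged 1521 ± 123 with TSA and 1527 ± 192 with DMSO (SD, n = 3 each). Neither the secreted Stc2 nor the lipoprotein receptor Vldlr was called by the probe set that represents it, but 1 of 3 probe sets of Stc2 was called lower and 1 of 4 of Vldlr higher.

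Genes around the response were counted from lists of related genes, to be read against the 30.6% of all genes higher and 28.4% lower with TSA. With TSA, 0 of 15 mitochondrial tRNA synthetases were higher and 3 lower (1 and 3 by limma at a raw p under 0.05), with a median log2 change of 0.00. Of 10 further cytosolic synthetases 4 were higher, among them Rars (0.79 ± 0.10), and 5 lower, among them Tars (-0.59 ± 0.08). Among 13 other serine, glycine and folate enzymes 4 rose and 4 fell, and the mitochondrial folate enzyme Aldh1l2 changed most, averaging 179 with TSA and 738 with DMSO (log2 change -2.05 ± 0.09, adjusted p = 9.27e-11). Of 15 endoplasmic reticulum chaperones and regulators 11 fell, including Xbp1 (-1.27 ± 0.08) and Hsp90b1 (-0.89 ± 0.08), whereas 1 rose, the stress sensor gene Atf6 (1.18 ± 0.15), named after its values were seen. Of 15 eIF2 kinases, eIF2B subunits and partners 4 rose, among them Eif2b2 (0.89 ± 0.09), and 5 fell, among them the stress kinase gene Eif2ak3 (-0.50 ± 0.08). Of 14 other stress-induced genes 7 rose, with Hmox1 at 1.55 ± 0.23, and 5 fell, with Herpud1 at -2.48 ± 0.14 and the tRNA exporter Xpot at -1.11 ± 0.07. Of 17 other transporters 4 rose and 8 fell, led by Slc7a6, which averaged 169.9 with TSA and 338 with DMSO.

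With LY294002 a smaller set of members was down-regulated and Atf4 was not among them. Of 38 members 6 were lower and 0 higher, 15.8% in all, where 9.47% of all genes passed the threshold, 5.63% higher and 3.84% lower. The limma test gave 11 lower and 4 higher before adjustment, at p under 0.05. Atf4 had signals of 1999, 2082 and 2424 with LY294002, against 1738, 2125 and 2333 with DMSO (adjusted p = 0.738), and these overlapped. The same held for Ddit3 (85.9, 66.8 and 122 with LY294002), Trib3 (121, 127 and 189), Asns (1299, 1238 and 1675) and Chac1 (431, 451 and 477), for which the adjusted p was 0.957, 0.84, 0.803 and 0.16.

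Ddit4 changed most with LY294002. Its signals were 199, 199 and 242, against 469, 480.1 and 472 with DMSO, a log2 change of -1.16 ± 0.19 or 2.23-fold (adjusted p = 0.00285). No array overlapped, and the call was kept in all 17 alternatives. Also lower were 3 enzymes of serine and one-carbon metabolism. Psat1 had 1566, 1407 and 1392 with LY294002, against 2025, 1969.6 and 1989 with DMSO, a log2 change of -0.46 ± 0.07 (adjusted p = 0.00244), and it too had separate groups. Shmt2 had 666, 675 and 819, against 908, 939 and 1068 with DMSO (-0.44 ± 0.13, adjusted p = 0.0456). Mthfd1l had 380.0, 355 and 341, against 505, 409 and 453 with DMSO (-0.34 ± 0.10, adjusted p = 0.0439). Both lay below their DMSO arrays, by less than Psat1 relative to the SE. All 4 probe sets of Phgdh had negative changes, between -0.51 and -0.41, and 2 of them were called, but not the one that represents the gene (adjusted p = 0.214).

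The synthetases Aars and Nars completed the list. Aars had signals of 807, 789 and 902 with LY294002, against 997, 1077 and 1098 with DMSO, a log2 change of -0.35 ± 0.09 (adjusted p = 0.031). Nars had 1437, 1284 and 1277, against 1624, 1642 and 1716 with DMSO, a log2 change of -0.32 ± 0.08 (adjusted p = 0.0193). Neither gene had overlapping groups. The other probe sets of Nars and Aars changed by -0.10 and -0.29, with overlapping arrays and no call. Of Psat1 1 of 2 probe sets was called, and of Shmt2 1 of 4, another of which changed by 0.17. When the probe sets of each gene were averaged, Nars (-0.21, adjusted p = 0.175) and Shmt2 (-0.26, adjusted p = 0.167) were not called, while Psat1 and Aars stayed called. No transporter was called, and Slc38a2 averaged 2193 ± 95.5 with LY294002 and 1869 ± 47.2 with DMSO (SD, n = 3 each; log2 change 0.23 ± 0.07, adjusted p = 0.0541).

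These counts depended on the arrays and the scaling. Leaving out LY294002 array 1 or 2 or DMSO array 2 or 3 ended the calls of Aars and Shmt2, leaving out LY294002 array 2 or 3 or DMSO array 2 or 3 that of Nars, and leaving out any array of both groups but DMSO array 2 that of Mthfd1l, with adjusted p of 0.0512 to 0.154, and the count of lower members was 3 without LY294002 array 1, 2 without LY294002 array 2, 3 without DMSO array 2 and 2 without DMSO array 3. Arrays of the same number deviated together in LY294002 and DMSO cultures, and with the replicate number as a block 10 members were lower, adding Cars, Mthfd2, Psph and Slc7a5, and 3 higher, namely Nupr1, Slc1a4 and Slc38a2. Over all 11751 genes the block gave 1117 higher and 807 lower, against 662 and 451 without it. Centring each array on its median moved the median of all genes to 0.14 and that of the members to 0.03, left 1 lower member, Ddit4, and gave 674 genes higher and 109 lower among all genes. In the scaling as deposited the members' median was -0.10 and that of all genes 0.01.

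Around the response, where 5.63% of all genes were higher and 3.84% lower, LY294002 lowered 4 of 15 endoplasmic reticulum chaperones and regulators, Dnajb11 (-0.46 ± 0.09), Hyou1 (-0.51 ± 0.14), Creld2 (-0.37 ± 0.10) and Manf (-0.35 ± 0.09), and raised 0 (0 also at a raw p under 0.05 by limma). Lower calls over all genes numbered 109 after centring, as given above, and these 4 were not run under it. Of the serine, glycine and folate enzymes 2 of 13 fell, the cytosolic folate enzyme Aldh1l1 (45.1 with LY294002, 82.4 with DMSO) and Gldc, which was below the signal of 50 in both groups. Of 14 other stress-induced genes 1 rose, Ndrg1 (0.43 ± 0.12), and 0 fell, with 5 higher and 1 lower before adjustment by limma, and of 17 other transporters Slc36a4 rose (0.48 ± 0.10) and Slc36a1 fell (-0.52 ± 0.12). None of 10 further cytosolic synthetases was called, with 4 lower and 0 higher at a raw p under 0.05 by limma.

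UO126 and SB202190 each changed 1 member. With UO126, Chac1 had signals of 467, 547 and 586, against 334, 352 and 440.0 with DMSO, a log2 change of 0.51 ± 0.12 (adjusted p = 0.0314), and 2.63% of members were called where 3.45% of all genes were, 1.88% higher and 1.57% lower. Every UO126 array was above every DMSO array, but the call was lost without UO126 array 2 or 3 or DMSO array 1 or 2, with adjusted p of 0.107 to 0.141. Atf3 had 66.4, 71.2 and 156 with UO126, against 34.4, 26.0 and 74.9 with DMSO, overlapping and not called (1.15 ± 0.39, adjusted p = 0.159; 0.66 with signals under 50 set to 50), but without DMSO array 3 it was called too (adjusted p = 0.0385), which gave 2 higher members. No member was lower with UO126, 1 at an unadjusted p under 0.05 by limma. Atf4 had signals of 2011, 2358 and 2595 with UO126 (adjusted p = 0.56 against DMSO), Ddit3 42.6, 55.0 and 142 (0.818), Trib3 133, 173 and 309 (0.731) and Asns 1330.4, 1259.5 and 1849 (0.987), each overlapping its DMSO arrays. Array 3 was the highest of the UO126 arrays for all 4.

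With SB202190, Ddit4 had signals of 186, 211 and 342, against 469, 480.1 and 472 with DMSO, a log2 change of -0.99 ± 0.19 (adjusted p = 0.0131). The groups did not overlap, and 2.63% of members were called where 3.52% of all genes were, 2.01% higher and 1.51% lower, but without SB202190 array 1 or 2 the adjusted p was 0.0676 and 0.0686. No member was higher, nor was any at an unadjusted p under 0.05 by limma. Nupr1 had 265, 239 and 253 with SB202190, against 382, 306 and 449.6 with DMSO, and was not called (-0.57 ± 0.17, adjusted p = 0.0933). Its groups did not overlap, and limma with the replicate block called it lower (adjusted p = 0.0171). The other probe set of Nupr1 changed by -0.52, with overlapping arrays. Atf4 had 2007, 1987 and 2214, Ddit3 98.2, 97.4 and 253, Trib3 130.2, 131 and 191, Chac1 316, 347 and 396, and Asns 1241, 1332 and 1525 with SB202190, all overlapping their DMSO arrays, with adjusted p between 0.476 and 0.981.

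The kinase inhibitors were also set against each other directly. LY294002 against UO126 gave 5 lower members and 0 higher ones, 13.2% against 8.18% of all genes (4.36% higher and 3.82% lower), and 9 lower and 0 higher by limma at a raw p under 0.05. These were Ddit4 (213 ± 24.8 with LY294002 and 388 ± 82.4 with UO126, log2 change -0.85 ± 0.19), Mthfd2 (-0.50 ± 0.12), Psph (-0.48 ± 0.14), Aars (-0.37 ± 0.09) and Nars (-0.28 ± 0.08), with adjusted p of 0.0171 to 0.0473. The replicate block added Gars and Psat1, while the count was 2 without LY294002 array 1, 0 without LY294002 array 2, 3 without LY294002 array 3, 0 without UO126 array 3 and 0 after centring.

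Against SB202190, LY294002 cultures had higher Nupr1 (509 ± 62.9 with LY294002 and 252 ± 13.4 with SB202190, SD, n = 3 each; log2 change 1.01 ± 0.17, adjusted p = 0.00267) and lower Psat1 (-0.40 ± 0.07, adjusted p = 0.00514) and Aars (-0.36 ± 0.09, adjusted p = 0.027), 7.89% of members against 7.38% of all genes (3.61% higher and 3.77% lower). Before adjustment, 2 higher and 7 lower members had p under 0.05 by limma. The count of lower members was 1 without LY294002 array 1 or 2 or SB202190 array 1 or 3. UO126 cultures had 5 members higher than SB202190 cultures and 0 lower, 13.2% against 9.77% of all genes (4.99% higher and 4.78% lower), with 7 and 1 at an unadjusted p under 0.05 by limma. They were Nupr1 (477 ± 118 with UO126 and 252 ± 13.4 with SB202190, log2 change 0.89 ± 0.17), Ddit4 (0.69 ± 0.19), Chac1 (0.60 ± 0.12), Mthfd2 (0.47 ± 0.12) and Gars (0.31 ± 0.08), with adjusted p of 0.00403 to 0.04. The groups overlapped for Ddit4, and the count was 3 without UO126 array 1 and 2 without UO126 array 3 or SB202190 array 1 or 2. The plot of shares sets the members beside all genes in the 7 comparisons.

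**Figure D4:**
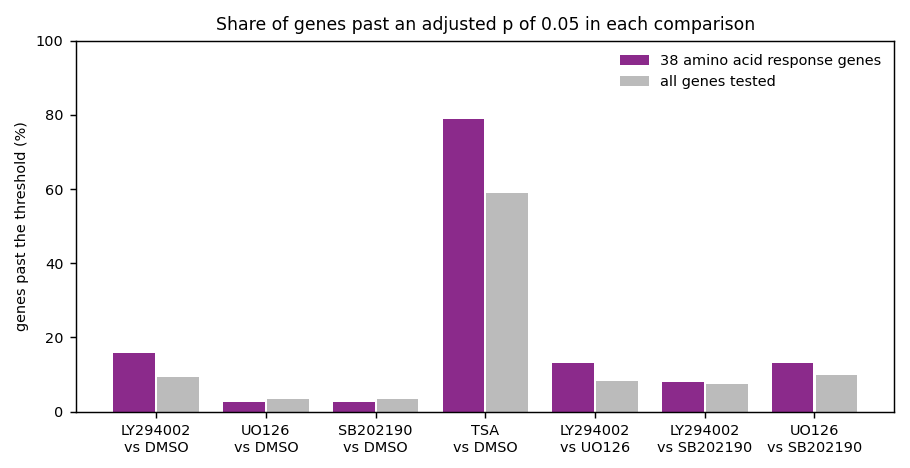
Percent of genes with an adjusted p under 0.05 (y axis) among the 38 amino acid response genes (purple bars) and all 11751 genes tested (grey bars) in each of 7 comparisons (x axis), with 3 arrays a group. The share of members is 78.9% against 58.9% with TSA and 15.8% against 9.47% with LY294002. With UO126 and SB202190 it is 1 member each, 2.63% against 3.45% and 3.52%. Members were chosen with earlier results of these data known.

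Ddit4 was called in 3 comparisons with DMSO, which share the DMSO arrays, lower with LY294002 and SB202190 and higher with TSA. Its mean signals were 213 (LY294002), 388 (UO126), 246 (SB202190) and 1045 (TSA), against 474 (DMSO). Psat1, Shmt2, Mthfd1l, Aars and Nars were called lower with both LY294002 and TSA, by less with LY294002 in Psat1, Shmt2, Mthfd1l and Aars (a difference that was not tested) and by -0.32 and -0.22 in Nars. These comparisons too share the DMSO arrays, and the share of all genes lower in both was not counted. After centring, all 5 LY294002 calls were lost. Those of Nars, Aars, Shmt2 and Mthfd1l were lost in 7, 8, 9 and 9 of 17 alternatives. Members with the promoter motif had a median log2 change of -0.66 with TSA over 12 tested genes, 8 of them lower and 2 higher. Members whose window lacked it had -0.64 over 19 genes, 14 of them lower and 1 higher. The 7 tested members without a window had -0.22, with 4 lower and 1 higher. Among all genes 28.4% were lower and 30.6% higher with TSA. The motif was counted anywhere in the window, and in 4 of the 13 members that held it, it did not lie wholly before the start site.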

How the data were processed

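The 15 samples were hybridised to Affymetrix mouse MOE 430 2.0 arrays, and the deposited intensity values are MAS5 signals, which the authors computed for each probe set. Here signals under 1 were set to 1 and log2 values were fitted with limma 3.58.1 (R 4.3.3, variance trend) over all 15 arrays, with Benjamini-Hochberg adjustment within each of 7 comparisons and a threshold of 0.05. Probe sets with a mean of 50 or more in at least 1 group were tested. Genes came from the platform annotation, of whose 45101 probe sets 34945 name 1 gene, 932 several and 9160 none, besides 64 controls; 3 probe sets that name a member with another gene were not used. Members and lists were chosen with earlier results of these data known. Printed with the signal on every array were Atf4, Ddit3, Trib3, Asns and Chac1 and, for each comparison with DMSO, up to 8 called members with the largest change after signals under 50 were set to 50; Ddit4, Psat1 and others already printed for 1 comparison were passed over in the next, and other members are given with their group. From context lists up to 4 called members with the smallest p were eligible.

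Replicate numbers come from the labels. Deviations from the group means correlated at 0.42, 0.16 and 0.30 for LY294002 with DMSO. They correlated over 0.1 for each number also for UO126 with DMSO and LY294002 with UO126. The reported fit had no replicate block, so its p-values leave out this pairing, and the block was run as an alternative. Alternatives were quantile normalization, median centring, other filters, an offset of 16, a floor of 50, no trend, 2 groups alone, the replicate block, other probe set rules and leaving out each array. The fit was tested on simulated data. The number of arrays limits the precision.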

Additional observations from a re-analysis of the deposited data

How the results depend on the processing

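The counts of members with TSA stayed within 1.5 times the reported ones in every alternative run, and the replicate block changed no call with TSA or UO126 against DMSO. With LY294002, higher members numbered 1 under quantile normalization, a mean of 100 or a floor of 50, and 3 with the replicate block; lower members numbered 1 after centring, 3 without a filter or a variance trend, 2 with both groups alone, 10 with the block, and 2 to 7 when 1 array was left out. With UO126, higher members numbered 0 after centring, without a filter, without a trend or with both groups alone, and 0 to 2 without 1 array. With SB202190, lower members numbered 2 under quantile normalization, 0 with both groups alone, 2 with the block, and 0 to 1 without 1 array. Deviations of SB202190 and DMSO arrays of the same number correlated at 0.13, 0.095 and 0.23, so not over 0.1 for each number.

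For LY294002 against UO126, lower members numbered 0 after centring, 3 without a filter, 2 without a trend or with these groups alone, and 0 to 4 without 1 array; all genes split 398 higher and 125 lower after centring, against 512 and 449. For LY294002 against SB202190, 2 were higher with the block, and lower members numbered 0 after centring, 1 without a filter or a trend, 4 with the mean of all probe sets or with any probe set, and 1 to 2 without 1 array. For UO126 against SB202190, 2 were higher after centring, without a filter or without a trend and 2 to 5 without 1 array, and lower members numbered 1 with the block and 0 to 1 without 1 array. The cause was not tested.

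Of 64 changes of named members against DMSO, 19 changed sign in some alternative, 0 of them past the threshold in either. After centring, log2 changes were 0.0022 for Trib3 and 0.048 for Asns with LY294002, 0.0091 for Asns with UO126 and 0.012 for Pck2 with SB202190. With LY294002, Pck2 was at -0.011 under quantile normalization and -0.038 with the mean of its probe sets; that mean gave 0.025 for Trib3 and 0.0084 for Pck2 with SB202190. Without 1 array, ranges with LY294002 were -0.043 to 0.17 for Atf4, -0.18 to 0.26 for Ddit3, -0.33 to 0.14 for Trib3, -0.21 to 0.027 for Asns, -0.040 to 0.12 for Atf5 and -0.050 to 0.081 for Pck2. With UO126 they were -0.83 to 0.041 for Ddit3, -0.040 to 0.57 for Trib3, -0.18 to 0.095 for Asns, -0.053 to 0.061 for Aars, -0.087 to 0.017 for Nars and -0.033 to 0.14 for Pck2. With SB202190 they were -0.11 to 0.10 for Atf4, -0.25 to 0.19 for Trib3, -0.17 to 0.035 for Chac1, -0.040 to 0.059 for Aars, -0.14 to 0.013 for Mthfd1l and -0.093 to 0.043 for Pck2. With TSA the range of Asns was -0.18 to 0.023. Members near a signal of 50, such as Atf3 and Sesn2 in DMSO cultures, rest on signals close to the minimum used for testing.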

Other observations

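Counted after the values were seen, the members were often highest on the array numbered 3 within a group. This held for 27 of 38 members with LY294002 (71.1%, against 35.2% of all genes), 29 with UO126 (76.3% against 30.7%), 28 with SB202190 (73.7% against 36.9%), 17 with TSA (44.7% against 36%) and 26 with DMSO (68.4% against 31.1%). In all 5 groups array 3 was highest for 8 members, Cars, Cth, Pck2, Slc7a1, Slc7a3, Slc7a5, Trib3 and Vldlr, 21.1% against 2.83% of all genes. Trib3, for example, had 189 on LY294002 array 3, 309 on UO126 array 3, 191 on SB202190 array 3, 84.0 on TSA array 3 and 225 on DMSO array 3, the top value of each group.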
